A study of Mus musculus with 12 samples.

Results

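Chromatin accessibility was compared between iNKT1 and iNKT2 cells sorted from the thymus of Hivep3-/- mice, and the difference was set beside the one between the same subsets of C57BL/6 mice. The members are the 2 Hivep3-/- iNKT1 and the 2 Hivep3-/- iNKT2 libraries, 4 of the 12 libraries of the study. They are read over the regions whose mean insertion density was at least 5 on the linear scale in either group, which kept 58649 of 63309 regions. The other 4660 regions were left out, and the region nearest the limit had a higher group mean of 5.00 on either side of it. Both genotypes were used at 8 to 9 weeks of age, and the Hivep3-/- animals had been backcrossed to C57BL/6. The knockout is not restricted to iNKT cells. The paper describes sorting from pooled thymi, while the sample titles number the libraries by mouse. Whether a library stands for a single animal is therefore not settled. The iNKT1 cells were gated as CD122+ ICOS- and the iNKT2 cells as CD122- ICOS+ Izumo1r+ CD138-, and the sorted subsets were mixed, transposed together and separated again. That last sort rested on ICOS and CD138, because the staining of CD122 and Izumo1r was lost in the reaction. Of the other 8 libraries, 4 hold C57BL/6 iNKT1 and iNKT2 cells, gated on the same markers, and 4 hold iNKT17 cells of both genotypes, which were CD138+. Nothing ties a replicate number to separate animals beyond the sample titles, so p-values measure the spread between libraries that may share much of their handling.

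iNKT cells are T cells with a nearly invariant receptor that recognises lipids on CD1d, and they acquire effector functions in the thymus. The zinc-finger protein PLZF, encoded by Zbtb16, drives that innate-like programme and is most abundant in iNKT2 cells. iNKT1 cells are defined by T-bet, encoded by Tbx21, with interferon-γ and cytotoxic genes, while iNKT2 cells express much GATA3 and make IL-4. HIVEP3 is a large zinc-finger protein that binds κB-like sites. ATAC-seq measures open chromatin by letting a transposase insert adapters into it, and each value here is the log2 of insertions per kilobase of a 500 bp region. A contrast is the iNKT1 mean minus the iNKT2 mean, so that a positive value marks a region more open in iNKT1 cells.

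The stretches below show the reference sequence (GRCm38.p6, the build also called mm10, forward strand, 5′ to 3′) at regions on which the description turns, with any T-box (AGGTGTGA), Runt (AACCACA) or TCF (ATCAAAG) match of either strand in capitals. Tbx21 and Zbtb16 are the marker loci. The Cd5, Inpp4a and Stim2 stretches come from iNKT1-high regions with a T-box match. The Rbm47 and Lhfpl3 stretches come from iNKT2-high regions whose contrast was kept and which hold a TCF match. The Gzmb stretch is a kept iNKT1-high promoter region that also holds a TCF match, and the Rfx4 stretch a region whose iNKT2-high contrast was lost.
Tbx21 intron, chr11:97109111-97109230: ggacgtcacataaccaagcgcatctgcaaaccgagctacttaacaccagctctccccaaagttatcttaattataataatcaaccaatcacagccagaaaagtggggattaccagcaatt
Zbtb16 intron, chr9:48685160-48685279: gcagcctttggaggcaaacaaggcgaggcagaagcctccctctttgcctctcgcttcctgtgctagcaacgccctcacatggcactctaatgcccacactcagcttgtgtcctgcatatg
Cd5 exon, chr19:10721075-10721194: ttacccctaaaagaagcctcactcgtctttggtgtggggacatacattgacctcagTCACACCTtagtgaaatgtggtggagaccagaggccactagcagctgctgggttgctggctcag
Inpp4a intron, chr1:37327428-37327547: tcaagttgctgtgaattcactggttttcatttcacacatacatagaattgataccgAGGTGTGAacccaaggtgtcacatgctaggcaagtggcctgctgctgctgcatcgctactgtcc
Stim2 intron, chr5:54105696-54105815: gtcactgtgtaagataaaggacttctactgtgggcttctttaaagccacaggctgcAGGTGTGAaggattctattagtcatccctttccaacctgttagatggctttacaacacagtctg
Rbm47 intron, chr5:66161483-66161602: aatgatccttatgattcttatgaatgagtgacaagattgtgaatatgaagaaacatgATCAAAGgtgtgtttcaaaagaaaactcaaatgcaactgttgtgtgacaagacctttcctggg
Lhfpl3 intron, chr5:23219471-23219590: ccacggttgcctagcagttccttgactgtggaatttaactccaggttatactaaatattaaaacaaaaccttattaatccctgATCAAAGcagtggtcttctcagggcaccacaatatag
Gzmb promoter, chr14:56261764-56261883: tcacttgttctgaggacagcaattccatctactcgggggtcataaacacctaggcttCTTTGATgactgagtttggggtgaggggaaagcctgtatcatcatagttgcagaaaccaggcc
Rfx4 intron, chr10:84816189-84816308: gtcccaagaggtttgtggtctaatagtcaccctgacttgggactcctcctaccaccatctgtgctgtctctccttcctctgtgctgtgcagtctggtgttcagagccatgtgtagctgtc

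The values are log2 insertions per kilobase after voom, and all libraries share nearly the same median and the same highest value. Their sums therefore do not show depth. How finely a library's lower values are graded grows with its depth, and the count of different values below the median was 227 and 491 in Hivep3-/- iNKT1, 91 and 118 in Hivep3-/- iNKT2, 139 and 170 in C57BL/6 iNKT1, and 219 and 159 in C57BL/6 iNKT2 libraries. It was higher in iNKT1 than in iNKT2 libraries of Hivep3-/- mice and overlapped in C57BL/6 mice, and its part in the contrasts was not tested. The Hivep3 locus itself gave 21 regions, with locus means of 3.82 and 3.87 in Hivep3-/- iNKT1, 3.38 and 3.35 in Hivep3-/- iNKT2, 3.46 and 3.51 in C57BL/6 iNKT1 and 3.38 and 3.44 in C57BL/6 iNKT2 libraries. Accessibility of that locus does not show whether the gene is intact, so it is no check of the genotype labels.

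Without Hivep3, the iNKT1 and iNKT2 subsets stayed far apart, and at most regions in the direction seen in C57BL/6 mice. Of 58649 regions, 10156 were called (17.3%), 5145 higher in iNKT1 (8.77%) and 5011 higher in iNKT2 cells (8.54%). Called means a Benjamini-Hochberg adjusted p under 0.1 in limma, fitted on all 12 libraries, with a difference of at least 3-fold. In C57BL/6 mice the same rule called 9355 of 58322 regions (16.0%), 4273 higher in iNKT1 (7.33%) and 5082 higher in iNKT2 cells (8.71%). In both genotypes and in the same direction, 6516 regions were called, which is 64.2% of the Hivep3-/- and 69.7% of the C57BL/6 calls. Among them, 3364 were iNKT1-high (65.4% of the Hivep3-/- and 78.7% of the C57BL/6 calls) and 3152 iNKT2-high (62.9% and 62.0%). Only 17 regions were called in opposite directions, and all 17 were iNKT1-high in Hivep3-/- and iNKT2-high in C57BL/6 cells.

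Regions called between the C57BL/6 subsets can be read in Hivep3-/- libraries, whose values did not enter that contrast, although they entered the estimate of the spread behind its p-values. The 4273 iNKT1-high regions of C57BL/6 mice had a median contrast of 2.59 in Hivep3-/- mice, against 2.39 in the mice they were chosen in, and 99.8% had the same sign. Their median log2 value was 3.84 and 3.81 in the Hivep3-/- iNKT1 libraries and 1.38 and 1.27 in the Hivep3-/- iNKT2 libraries. The 5082 iNKT2-high regions had a median contrast of -2.03 in Hivep3-/- mice, against -2.33 in C57BL/6 mice, and 95.6% had the same sign. Their median was 3.65 and 3.66 in the Hivep3-/- iNKT2 libraries, below the 3.80 and 3.83 of C57BL/6 iNKT2 libraries. In iNKT1 cells it was 1.67 and 1.74 without Hivep3, above the 1.35 and 1.55 of C57BL/6. A list chosen in 1 genotype shrinks in the other, so the reverse reading stands beside it. The Hivep3-/- iNKT1-high regions went from 2.56 to 2.10 in C57BL/6 mice, and the Hivep3-/- iNKT2-high regions from -2.31 to -1.98. The iNKT1-high list of C57BL/6 mice was thus the one of the 4 lists that did not shrink. Over the 57045 regions tested in both genotypes, the contrasts had a Pearson r of 0.883 and a Spearman rho of 0.842, as a description across regions that share libraries.

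The difference between the genotypes' contrasts was tested itself, over 59926 regions open in any of the 4 groups. It was called at 1836 of them (3.06%), with 1234 shifted towards iNKT1 in Hivep3-/- mice (2.06%) and 602 towards iNKT2 (1.00%). A contrast is named kept where both genotypes were called in the same direction and the 95% interval of the difference lay within 3-fold. It is named widened where the region was called in Hivep3-/- mice and the difference was called in the same direction, and narrowed where it was called in C57BL/6 mice and the difference ran against it. By these rules 1402 iNKT1-high and 1730 iNKT2-high regions were kept. Widened were 486 iNKT1-high and 401 iNKT2-high regions. Narrowed were 61 iNKT1-high and 544 iNKT2-high regions. At 4088 iNKT1-high and 4249 iNKT2-high regions, called in at least 1 genotype, the data could not place the contrast in any of these classes.

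**Figure D1:**
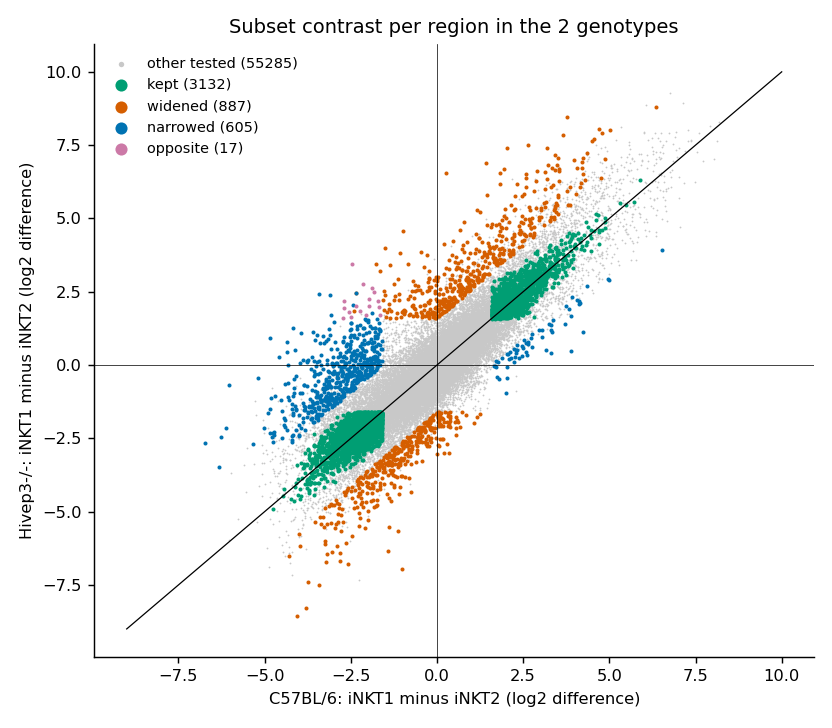
Each point is 1 of 59926 regions, with the iNKT1 minus iNKT2 log2 difference in C57BL/6 mice on the x axis and in Hivep3-/- mice on the y axis, and the diagonal marks equal contrasts. The 3132 kept regions lie along the diagonal, the 486 iNKT1-high and 401 iNKT2-high widened ones lie off it above and below, and the 544 narrowed iNKT2-high ones outnumber the 61 narrowed iNKT1-high ones.

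Narrowing was thus mostly a matter of iNKT2-high regions, and the same order held under every alternative setting tried. The 544 narrowed iNKT2-high regions had a median contrast of -2.74 in C57BL/6 and -0.33 in Hivep3-/- mice. Their median log2 value in iNKT1 cells was 2.39 in Hivep3-/- and 1.04 in C57BL/6 mice, and in iNKT2 cells 2.67 against 3.65, so both subsets differed. At 95.4% of them iNKT1 cells were more open in Hivep3-/- mice, and at 5.51% iNKT2 cells were. The 486 widened iNKT1-high regions had a median contrast of 3.20 against 0.93, and their iNKT2 values were lower in Hivep3-/- mice by a median of -1.42. The 401 widened iNKT2-high regions had a median contrast of -3.13 against -1.12, with iNKT1 values lower by a median of -1.17 and iNKT2 values higher by 0.90. These medians describe classes that were chosen on the same differences and carry no test.

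The marker genes were checked next, over all regions of a gene body with 10 kb on either side, here called the locus. Tbx21 (ENSMUSG00000001444.2, chr11:97098071-97115331) went with its label, with 9 of 12 regions called higher in Hivep3-/- iNKT1 cells, 8 of which were also called in C57BL/6 mice. Zbtb16 (ENSMUSG00000066687.5, chr9:48654297-48836222) was more open in iNKT2 cells, at 43 of 85 regions tested. Gata3 (ENSMUSG00000015619.10, chr2:9857078-9890034), the iNKT2 marker, went against its label. None of its 14 regions was called higher in Hivep3-/- iNKT2 cells, and 1 was called higher in iNKT1 cells. Its locus means were 4.57 and 4.51 in Hivep3-/- iNKT1 and 4.10 and 4.17 in Hivep3-/- iNKT2 libraries, so that iNKT1 was slightly higher. The contrast of 0.41 (limma adjusted p = 0.00461) was close to the 0.42 of C57BL/6 mice, with an interval of the difference from -0.33 to 0.30. Accessibility of a locus is not its transcript level.

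At Tbx21 the contrast was wider without Hivep3. The locus means were 5.11 and 5.14 in Hivep3-/- iNKT1 and 1.51 and 1.58 in Hivep3-/- iNKT2 libraries. The C57BL/6 means were 5.02 and 5.11 in iNKT1 and 2.60 and 2.42 in iNKT2 libraries. The iNKT1 libraries of the genotypes lay close together, and the Hivep3-/- iNKT2 libraries lay below all others of the 4 groups. The contrast was 3.58 ± 0.12 (SE, n = 2 against 2) against 2.55, and the difference of 1.03 ± 0.17 had a limma adjusted p of 0.00566. The most different region, the intron stretch printed above (chr11:97108921-97109420), had 5.62 and 5.68 in Hivep3-/- iNKT1 and -2.43 and -0.10 in Hivep3-/- iNKT2 libraries. Its contrast was 6.91 ± 0.74 (SE, adjusted p = 4.41e-06 in limma), and the difference from C57BL/6 mice at that region was 2.18 and not called (adjusted p = 0.257).

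Zbtb16 had the most iNKT2-high calls of any protein-coding locus in Hivep3-/- mice. The 43 calls compare with 24 in C57BL/6 mice, and 23 were shared. The locus means were 2.77 and 2.80 in Hivep3-/- iNKT1, 4.59 and 4.59 in Hivep3-/- iNKT2, 3.73 and 3.62 in C57BL/6 iNKT1, and 4.79 and 4.74 in C57BL/6 iNKT2 libraries. The iNKT2 libraries of the genotypes were close, and the Hivep3-/- iNKT1 libraries were the lowest of the 4 groups. The contrast was -1.80 ± 0.08 against -1.09, with a difference of -0.71 ± 0.11 (SE, limma adjusted p = 0.00391). At 7 regions the difference was called for the region alone, all 7 towards iNKT2, and 7 other regions were kept. The most different region lay 151 kb downstream of the start site, in an intron, with -0.59 and -1.72 in Hivep3-/- iNKT1 and 3.35 and 3.35 in Hivep3-/- iNKT2 libraries. In C57BL/6 mice it had 0.15 and 1.13 in iNKT1 and 3.34 and 3.51 in iNKT2 libraries.

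**Figure D2:**
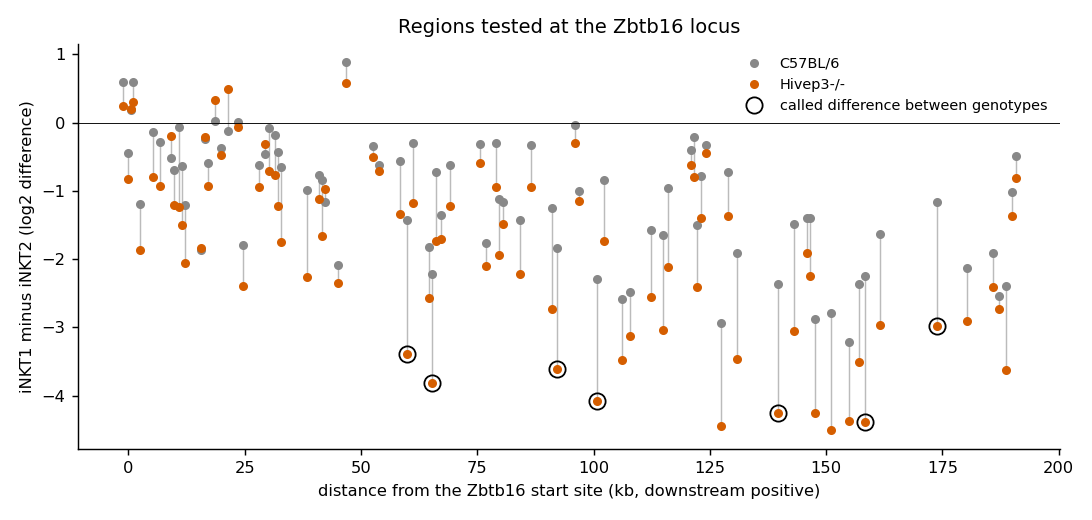
The iNKT1 minus iNKT2 log2 difference at the 85 tested regions of the Zbtb16 locus is plotted against distance from the start site in kb, in grey for C57BL/6 and orange for Hivep3-/- mice, with a line joining the values of 1 region. Circles mark the 7 regions with a called difference between the genotypes, the nearest of them 59.8 kb downstream.

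The iNKT1 programme, 27 genes of T-bet-positive and cytotoxic lymphocytes that include Il2rb, a gene of the gate, kept its direction. Of its 217 tested regions, 115 were higher in Hivep3-/- iNKT1 and 3 in Hivep3-/- iNKT2 cells, which is 53.0% and 1.38% against the 8.77% and 8.54% of all regions. The C57BL/6 libraries had 105 and 2 of 218 called, and 99 of the iNKT1-high calls were shared. The median contrast of the list was 1.85 against 1.53 in C57BL/6 mice and -0.01 over all regions tested in Hivep3-/- mice. By locus means, 26 of 27 genes were higher in iNKT1 cells in each genotype, against a background of 65.7% of 9727 loci called in either direction in Hivep3-/- and 64.2% in C57BL/6 mice. The mean linear density of the list was 35.1 and 34.6 in Hivep3-/- iNKT1 and 16.7 and 16.4 in Hivep3-/- iNKT2 libraries, beside 35.5 and 34.3 and 17.4 and 17.0 in C57BL/6 mice.

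No difference between the genotypes was called at the loci of 3 NK receptor genes, of the granzyme genes and of Prf1. The NK receptor genes Klrd1, Klrk1 and Klrc1 had 10 of 10, 5 of 5 and 5 of 6 regions called higher in Hivep3-/- iNKT1 cells, with the same counts in C57BL/6 mice. Their locus contrasts were 5.37, 4.63 and 4.44 in Hivep3-/- mice against 5.20, 4.65 and 4.68 in C57BL/6 mice. The intervals of these differences reached from -1.02 to 1.36, from -1.02 to 0.97 and from -1.46 to 0.98. Klrk1, which encodes the receptor NKG2D, also gave the largest kept contrast of any iNKT1-high region, at its promoter (44 bp from the start site). That region had 4.29 and 4.22 in Hivep3-/- iNKT1 and -1.72 and -2.39 in Hivep3-/- iNKT2 libraries, and 4.71 and 4.54 against -1.59 and -0.97 in C57BL/6 mice. The groups did not overlap, which held between the Hivep3-/- subsets at 77.0% of all tested regions. The contrasts of 6.31 and 5.90 differed by 0.41, with an interval from -0.57 to 1.39. The promoter region of Gzmb, which encodes granzyme B, had 4.67 and 4.76 against -0.88 and -0.59, a contrast of 5.45 beside 5.50 in C57BL/6 mice. The whole Gzmb locus had 5.90 against 5.26 (limma adjusted p = 0.393) and Gzma, the granzyme A gene, 5.68 against 4.90 (adjusted p = 0.515). Prf1, which encodes perforin, had all 3 regions kept, with a locus contrast of 3.17 against 3.22.

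Stat4, which carries the IL-12 signal, gave a locus contrast of 2.53 against 2.67, and the difference of -0.14 ± 0.17 was not called. Runx3, a factor of cytotoxic lineages, gave 0.94 against 0.81. Eomes, the T-box relative of Tbx21, had 0 of 7 regions called in either genotype. Il18r1, which encodes an IL-18 receptor chain, was the one gene of the list whose locus contrast was called in C57BL/6 (0.43) and not in Hivep3-/- mice (0.14, limma adjusted p = 0.169), and the difference between the genotypes missed the threshold (adjusted p = 0.145) and passed it with the replicate number as a block (adjusted p = 0.0342).

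**Figure D3:**
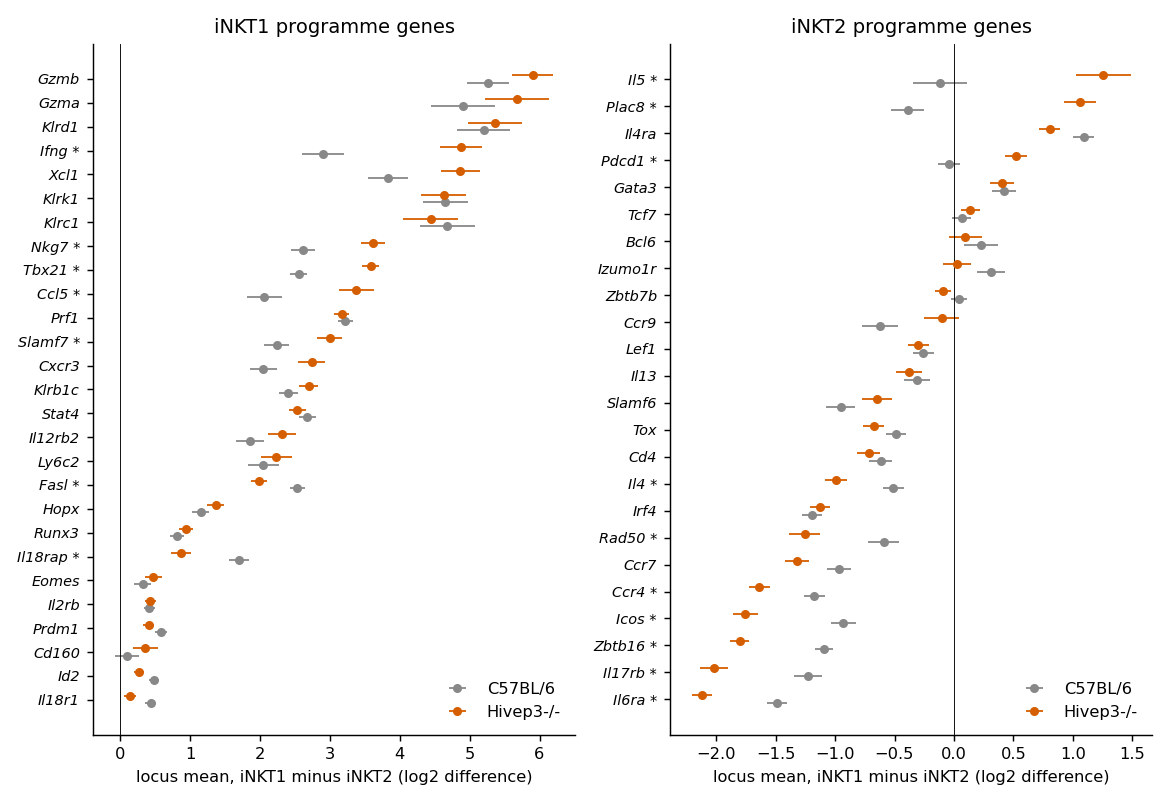
Locus mean contrasts, iNKT1 minus iNKT2 on the log2 scale, are shown for the 27 iNKT1 and 24 iNKT2 programme genes, in grey for C57BL/6 and orange for Hivep3-/- mice, with bars of 1 SE. A star marks a called difference between the genotypes, and starred genes such as Ifng, Tbx21, Zbtb16 and Il6ra lie farther from 0 in Hivep3-/- mice, while Fasl and Il18rap lie nearer.

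Other iNKT1 genes were widened by locus means. Ifng, which encodes interferon-γ, had 5 of 5 regions called in Hivep3-/- mice, with locus means of 4.62 and 4.80 in iNKT1 and -0.33 and -0.02 in iNKT2 libraries. In C57BL/6 mice the iNKT2 libraries had 1.93 and 1.18, with 4.55 and 4.37 in iNKT1. The contrast of 4.88 against 2.90 gave a difference of 1.98 ± 0.42 (SE, limma adjusted p = 0.0163). Nkg7, a cytotoxic granule gene, had 3.62 against 2.61 (difference 1.01, adjusted p = 0.0272). Ccl5, a chemokine gene, had 3.38 against 2.06 (1.32, adjusted p = 0.0407), and all 7 of its regions were called in Hivep3-/- against 3 in C57BL/6 mice. No single Ccl5 region had a called difference between the genotypes. Slamf7 had 3.00 against 2.24 (0.76, adjusted p = 0.0837). The differences at Tbx21, Ifng and Nkg7 were called without any 1 of the 8 libraries. That at Ccl5 was called in 2 and that at Slamf7 in 1 of those 8 fits, and both missed the threshold otherwise, with an adjusted p of up to 0.153 at Ccl5 and 0.218 at Slamf7.

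The Slamf7 region with the largest contrast, 19552 bp from its start site, shows the form this took. It had 6.60 and 6.52 in Hivep3-/- iNKT1, 0.90 and 1.10 in Hivep3-/- iNKT2, 6.77 and 6.67 in C57BL/6 iNKT1 and 3.81 and 3.31 in C57BL/6 iNKT2 libraries. The iNKT1 libraries were alike, and the Hivep3-/- iNKT2 libraries were lower than the C57BL/6 ones by more than the spread within either group. The difference between the contrasts was 2.40 ± 0.35 (SE, adjusted p = 0.00224).

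Fasl and Il18rap went the other way. Fasl, which encodes the Fas ligand, had a locus contrast of 1.99 against 2.54 (difference -0.55, limma adjusted p = 0.0524). Il18rap, the accessory chain of the IL-18 receptor, had 0.87 against 1.70 (difference -0.83, adjusted p = 0.0294), with iNKT2 locus means of 2.92 and 2.52 in Hivep3-/- and 1.86 and 1.91 in C57BL/6 libraries. No single region of either gene had a called difference. With 1 library left out, the Fasl difference was called in 3 and the Il18rap difference in 6 of 8 fits, with an adjusted p of up to 0.173 and 0.115.

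**Figure D4:**
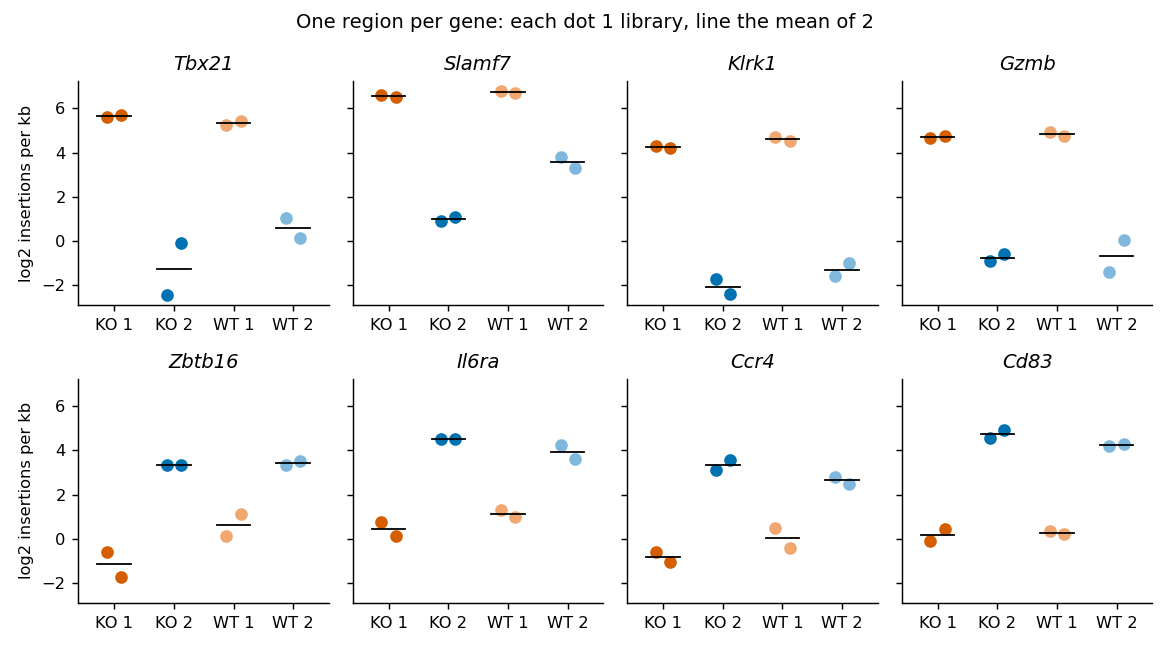
Log2 insertions per kb at 1 region of each of 8 genes are plotted for every library, with a line at the mean of 2 libraries (KO 1 and KO 2 are iNKT1 and iNKT2 cells of Hivep3-/- mice, WT 1 and WT 2 those of C57BL/6 mice). The subsets do not overlap in either genotype at any of the 8 regions, which were chosen for large contrasts. Between the Hivep3-/- subsets the same held at 77.0% of all 58649 tested regions. The Slamf7 region is the one in which Hivep3-/- iNKT2 lies farthest below C57BL/6 iNKT2 cells.

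The iNKT2 programme, 24 genes of PLZF-high, IL-4-producing and less mature T cells, differed more by gene. Of its 338 tested regions, 96 were higher in Hivep3-/- iNKT2 (28.4%) and 9 in iNKT1 cells (2.66%). The C57BL/6 libraries had 60 and 8 of 342 called, and 53 of the iNKT2-high calls were shared. Zbtb16 held 43 of the 96, and Icos, a gene of the gate, held 9. The median contrast was -0.71 against -0.52 in C57BL/6 mice. By locus means, 14 of 24 genes were higher in iNKT2 and 5 in iNKT1 cells without Hivep3, against 16 and 3 in C57BL/6 mice. The mean linear density of the list was 33.1 and 32.9 in Hivep3-/- iNKT2 and 23.8 and 22.9 in Hivep3-/- iNKT1 libraries. In C57BL/6 mice it was 34.8 and 33.7 in iNKT2 and 27.2 and 26.2 in iNKT1 libraries.

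Of the cytokine and chemokine receptor genes of the list, Il6ra, Il17rb and Ccr4 were widened by the test of locus means. Ccr7, Ccr9 and Il4ra had no called difference. At Ccr4 no single region had a called difference, and 4 of 11 were kept. Il6ra, the IL-6 receptor, had 14 of 22 regions called in Hivep3-/- against 9 in C57BL/6 mice and a locus contrast of -2.12 against -1.49 (difference -0.64, limma adjusted p = 0.00976). Its locus means were 2.82 and 2.79 in Hivep3-/- iNKT1 and 4.98 and 4.88 in Hivep3-/- iNKT2 libraries, with 3.10 and 3.17 and 4.65 and 4.59 in C57BL/6 mice. Here both subsets lay farther out in Hivep3-/- mice. Il17rb, the IL-25 receptor, had -2.02 against -1.22 (difference -0.79, adjusted p = 0.0161), and the region with its largest contrast lies in an intron of the neighbouring gene Chdh. Ccr4, a chemokine receptor gene, had -1.64 against -1.18 (-0.46, adjusted p = 0.0447), called in 4 of 8 fits that left out 1 library, with an adjusted p of up to 0.181. Ccr7, which guides cells within lymphoid tissue, had -1.32 against -0.97 (adjusted p = 0.155, and 0.0546 with the replicate number as a block). Il4ra, the IL-4 receptor chain, was iNKT1-high with 0.81 against 1.09 (adjusted p = 0.195, and 0.0611 with the block).

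At the type 2 cytokine cluster the picture differed by gene. The Il4 locus had 5 of 14 regions called in Hivep3-/- against 2 in C57BL/6 mice, with a contrast of -0.99 against -0.51 (difference -0.48, limma adjusted p = 0.0395). Its means were 4.30 and 4.21 in Hivep3-/- iNKT1 and 5.18 and 5.30 in Hivep3-/- iNKT2 libraries, with 4.89 and 4.82 and 5.43 and 5.30 in C57BL/6 mice. The neighbouring Rad50, which houses the control region of the cluster, had -1.26 against -0.59 (-0.67, adjusted p = 0.0467), and Il13 had -0.38 against -0.31. The windows of Il4, Il13 and Rad50 can share regions. With 1 library left out the Il4 difference was called in 4 and the Rad50 difference in 3 of 8 fits, with an adjusted p of up to 0.151 and 0.145. Il5, at the far end of the cluster, had an iNKT1-high contrast of 1.26 in Hivep3-/- mice and no called contrast in C57BL/6 mice (-0.12, adjusted p = 0.679), over 3 regions. The difference of 1.37 (adjusted p = 0.0256) was 0.28 with 50 kb on either side. Its Hivep3-/- iNKT2 libraries had 1.51 and 0.70, against 2.72 and 2.54 in C57BL/6 mice.

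At Plac8 the contrast was called in opposite directions. The paper reports more Plac8 transcript in its non-cycling iNKT2 cluster than in the cycling ones. It also reports less Plac8 transcript in Hivep3-/- than in C57BL/6 cells of stage 0, a precursor stage that these libraries do not cover. The Plac8 locus means were 3.83 and 3.65 in Hivep3-/- iNKT1 and 2.64 and 2.71 in Hivep3-/- iNKT2 libraries. C57BL/6 mice had 3.92 and 3.68 in iNKT1 and 4.34 and 4.04 in iNKT2 libraries. The contrast was 1.06 against -0.39, a difference of 1.45 ± 0.19 (SE, limma adjusted p = 0.00219). Pdcd1, which encodes the inhibitory receptor PD-1, had an iNKT1-high contrast of 0.52 in Hivep3-/- mice and no called contrast in C57BL/6 mice (-0.05, adjusted p = 0.699), a difference of 0.56 (adjusted p = 0.0246). Irf4, a factor induced by receptor signals, held its contrast (-1.13 against -1.20), with 4 of 14 regions called higher in Hivep3-/- iNKT2 cells and 5 in C57BL/6. Lef1, Tcf7, Zbtb7b and Bcl6, factors of naive or helper T cells, had 0 regions called in Hivep3-/- mice, and 2 regions of Lef1 were called in C57BL/6 mice. Ccr9, a homing receptor of the gut and thymus, had -0.10 against -0.62, and the difference of 0.52 missed the threshold (adjusted p = 0.151) and passed it with the block (adjusted p = 0.0431).

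Icos, Il2rb, Izumo1r and Sdc1 encode or stand for the proteins used to gate the cells, and their contrasts between the subsets are no finding. Of their 40 tested regions, 1 was higher in Hivep3-/- iNKT1 and 9 in iNKT2 cells, and all 9 lay at Icos. Il2rb had a locus contrast of 0.43 in Hivep3-/- and 0.41 in C57BL/6 mice. Icos had -1.75 against -0.93 (difference -0.82, limma adjusted p = 0.00779), with 9 of 16 regions called in Hivep3-/- and 4 in C57BL/6 mice. The same markers gated both genotypes, but the paper reports less Icos transcript and ICOS protein in Hivep3-/- iNKT cells. Whether the ICOS gate took like cells in both genotypes was not tested, and this bears on every difference between their contrasts. Sdc1, which encodes CD138, had 0.07 against -0.42 (difference 0.49, adjusted p = 0.0808, called in 2 of 8 fits that left out 1 library, with an adjusted p of up to 0.265).

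Other lists share genes with the programmes, Cxcr3 with that of iNKT1 and Ccr7, Ccr9 and Irf4 with that of iNKT2 cells. Those of receptor-induced and shared T cell genes stood below the background of 8.77% and 8.54%, and that of egress and homing genes above it for iNKT1. Of 126 regions of genes induced by the T cell receptor, 8 were higher in Hivep3-/- iNKT1 and 7 in iNKT2 cells (6.35% and 5.56%), 6 and 5 of which were shared with C57BL/6 mice. Irf4 held 4 of the 7. The regions of Egr2, Rel, Id3 and Egr3 had 0 calls. Of 190 regions of shared T cell genes, 15 and 13 were called (7.89% and 6.84%). Among them Cd2, an adhesion receptor gene, had 7 of 17 regions higher in iNKT1 cells. Cd247, the CD3ζ gene, had 9 of 33 tested regions higher in iNKT2 cells, against 2 of 22 tested in C57BL/6 mice. Its locus means were 3.68 and 3.68 in Hivep3-/- iNKT1 and 4.66 and 4.68 in Hivep3-/- iNKT2 libraries. In C57BL/6 mice they were lower in both subsets, at 2.46 and 2.67 in iNKT1 and 3.33 and 3.18 in iNKT2 libraries. The Cd247 locus contrasts of -0.99 and -0.69 had no called difference (limma adjusted p = 0.202). At 3 of the 12 genes the locus difference was called, each towards iNKT2 in Hivep3-/- mice, beside 14.7% of all 9727 loci. The windows of Cd3d and Cd3g overlap and can share regions, and 0 regions of either gene were called in either genotype. Cd3d, a chain of the CD3 complex, had means of 4.83 and 4.76 in Hivep3-/- iNKT1 and 5.06 and 4.96 in Hivep3-/- iNKT2 libraries, against 4.97 and 4.88 and 4.73 and 4.57 in C57BL/6 mice. Its contrast of -0.22 against 0.27 was called in each genotype and changed sign (difference -0.49, adjusted p = 0.0217). Fyn, a kinase of receptor signalling, had -0.11 against 0.40 (-0.51, adjusted p = 0.0283), called in 6 of 8 fits that left out 1 library, with an adjusted p of up to 0.114. Cd3g had -0.15 against 0.16 (-0.31, adjusted p = 0.0986), called in 2 of those fits, with an adjusted p of up to 0.296. Of 86 regions of egress and homing genes, 12 and 5 were called (14.0% and 5.81%), 5 of the 12 at Cxcr3. S1pr1, needed to leave the thymus, had a locus contrast of -0.07 against -0.62 (difference 0.55, limma adjusted p = 0.0903), called in 1 of 8 fits that left out 1 library, with an adjusted p of up to 0.258.

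Markers of other cells were read in the same libraries. Of 86 tested regions at 15 of 16 iNKT17 marker loci, 10 were higher in Hivep3-/- iNKT1 and 20 in Hivep3-/- iNKT2 cells (11.6% and 23.3%), and 16 of the 20 lay at Rora, which encodes a factor of the ROR family. Rora had 7 iNKT2-high calls in C57BL/6 mice, a locus contrast of -1.25 against -0.50 and a difference of -0.75 (limma adjusted p = 0.0048). Of the 10 loci of the list with a mean, 3 had a called difference towards iNKT1 and 2, Rora among them, towards iNKT2. Blk had 0.63 (adjusted p = 0.0185), which was 0.17 and not called with 50 kb on either side. Serpinb1a had -0.94 (adjusted p = 0.0542). The mean linear density over the iNKT17 list was 9.01 and 8.74 in Hivep3-/- iNKT1, 11.8 and 12.2 in Hivep3-/- iNKT2, 10.2 and 9.85 in C57BL/6 iNKT1 and 11.2 and 10.9 in C57BL/6 iNKT2 libraries, beside 34.7 and 34.5 in Hivep3-/- iNKT17 libraries. The part of iNKT17 cells in the shifts towards either subset was not tested. Of 17 B cell marker regions 5 were called iNKT1-high, 3 at Ebf1, and of 14 myeloid marker regions 2 were called in each direction. The 7 tested double-positive thymocyte regions gave 1 iNKT2-high call, and the 23 regulatory T cell regions gave 0. The mean linear density of the regulatory T cell list was 30.0 and 30.1 in Hivep3-/- iNKT2 and 24.7 and 24.4 in Hivep3-/- iNKT1 libraries. In C57BL/6 mice it was 24.7 and 25.5 in iNKT2 and 22.8 and 23.9 in iNKT1 libraries. Of its 3 loci, Foxp3 had a called difference between the genotypes (-0.56, limma adjusted p = 0.0273), beside 14.7% of all loci. In the B cell list it was called at 1 of 3 loci, Pax5 (1.09, adjusted p = 0.0283). In the myeloid list it was called at 1 of 2 loci, Cd68 (0.25, adjusted p = 0.092). Rag1, Cd8a, Cd8b1, Ms4a1 and Csf1r gave no tested region. The part of other cells in the contrasts was not tested. In bulk libraries, fewer cells of a type and a lower signal per cell cannot be told apart.

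Beyond the lists, the regions with the largest Hivep3-/- contrasts lay in introns or between genes. Among iNKT1-high regions, an intron of Pald1 at 34919 bp from the Prf1 start site had 5.45 and 5.26 in Hivep3-/- iNKT1 libraries while both iNKT2 libraries lay at their lowest value, so that no fold is given. The same held for an intron of Gas7, with 4.98 and 5.05. An intergenic region 9146 bp from Man2b2 had 6.10 and 6.01 against -2.43 and -3.06, a contrast of 8.80 ± 0.58 (SE, limma adjusted p = 7.1e-08), and 6.35 in C57BL/6 mice. Introns of Nav2 and Inpp4a had contrasts of 8.85 and 8.45, each with 1 iNKT2 library at its lowest value.

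Among iNKT2-high regions, the largest contrast lay in an intron of Me3, with -3.12 and -4.31 in Hivep3-/- iNKT1 and 5.02 and 4.67 in Hivep3-/- iNKT2 libraries. The same region of C57BL/6 mice had 1.35 and 0.71 in iNKT1 and 5.21 and 4.96 in iNKT2 libraries, so that the iNKT2 libraries were alike and iNKT1 differed. One Hivep3-/- iNKT1 library lay at its lowest value there. The contrast of -8.56 was wider than the -4.05 of C57BL/6 mice by -4.51 (limma adjusted p = 0.00259). An intron of Xpo4 had -8.29, also with 1 iNKT1 library at its lowest value, and an intron of D17Wsu92e had -7.40, and both were widened. A region 229413 bp from Trib2 had both Hivep3-/- iNKT1 libraries at their lowest value. A region in Fhit had -7.34, and its difference from C57BL/6 mice missed the threshold (adjusted p = 0.104).

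The kept iNKT2-high regions with the largest contrasts were in introns of Rbm47, Car8, Lhfpl3 and Mmd2 and near Cd83. The Cd83 region, 15653 bp from the start of this activation marker gene, had -0.10 and 0.44 in Hivep3-/- iNKT1 and 4.58 and 4.91 in Hivep3-/- iNKT2 libraries. C57BL/6 mice had 0.36 and 0.20 against 4.20 and 4.30, so that the subsets were apart by a similar distance in both. The contrasts were -4.57 and -3.97, with an interval of the difference from -1.27 to 0.06. The Mmd2 region had contrasts of -4.48 and -4.47. Besides those of Klrk1 and Gzmb, the kept iNKT1-high regions with the largest contrasts lay near Gpsm2 (5.57 against 5.71), Plxna1 (5.52 against 5.31) and Cfap97d2 (5.14 against 4.62).

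Among widened iNKT1-high regions, the largest difference lay in an intron of Agpat4, where Hivep3-/- iNKT1 libraries had 2.56 and 2.70 and both Hivep3-/- iNKT2 and both C57BL/6 iNKT1 libraries lay at their lowest value. Regions near Fibcd1 and in Dnaaf5 had differences of 5.58 and 5.48, and in the Stim2 region printed above both Hivep3-/- iNKT2 libraries lay at their lowest value. With 1 library left out, the Fibcd1 difference was lost in 4 and the Dnaaf5 difference in 7 of 8 fits, with an adjusted p of up to 0.157 and 0.187. Widened iNKT2-high regions included 2 in Fhit, a very large gene at a fragile site, with differences of -5.92 (adjusted p = 0.108 without the second C57BL/6 iNKT2 library) and -4.91, and 1 in St6galnac3 with -4.53.

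Among narrowed iNKT2-high regions, the Rfx4 intron printed above had 0.36 and -1.65 in C57BL/6 iNKT1 and 3.89 and 4.51 in C57BL/6 iNKT2 libraries. In Hivep3-/- mice it had 2.77 and 3.05 in iNKT1 and 1.98 and 2.03 in iNKT2 libraries, so that iNKT1 was higher and iNKT2 lower than in C57BL/6 mice. The contrast went from -4.84 to 0.91, a difference of 5.75 ± 0.74 (SE, limma adjusted p = 0.00128). Regions near Ypel2, Tesc, Nfe2l3 and Slain1 had iNKT2-high contrasts of -3.42, -3.09, -4.17 and -6.04 in C57BL/6 mice. In Hivep3-/- mice both subsets lay under the limit of 5 at these 4 regions, so that no contrast was tested there, and both iNKT2 libraries at Tesc lay at their lowest value. The differences at Ypel2 and Slain1 were lost in 4 and 7 of the 8 fits that left out 1 library, with an adjusted p of up to 0.142 and 0.27. Among narrowed iNKT1-high regions, 2 introns of Thsd7b had differences of -3.43 and -3.11. The first had 2.72 and 2.59 in Hivep3-/- iNKT1 and 2.25 and 2.12 in Hivep3-/- iNKT2 libraries, against 2.35 and 2.67 and -1.06 and -1.72 in C57BL/6 mice, so that Hivep3-/- iNKT2 cells were open where C57BL/6 iNKT2 cells were not. Mthfs, Trib2 and an intron near Klf3 followed with -2.97, -2.89 and -2.64.

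By locus means, the difference between the genotypes was called at 1434 of 9727 protein-coding genes (14.7%), 864 shifted towards iNKT1 and 570 towards iNKT2 in Hivep3-/- mice. With the replicate number as a block the count was 2432, and without 1 library it was 607 to 1301. The lowest counts were 684 and 607 without the first and the second Hivep3-/- iNKT1 library, 719 without the first C57BL/6 iNKT1 and 761 without the second C57BL/6 iNKT2 library. Of the genes called higher in iNKT1 cells, 3094 in Hivep3-/- and 2835 in C57BL/6 mice, 2281 were called in both. Of those called higher in iNKT2 cells, 3293 and 3412, 2623 were called in both. The largest shifts towards iNKT1 were at Megf11 (2.91), Htra3 (2.72), Nkd1 (2.54), Syt13 (2.42) and Antxr1 (2.38). Syt13 had means of 2.48 and 2.68 in Hivep3-/- iNKT1 and 2.26 and 2.53 in Hivep3-/- iNKT2 libraries, against 0.93 and 1.14 and 3.11 and 3.44 in C57BL/6 mice, so that a contrast of -2.24 was reduced to 0.18. At Megf11 a contrast of -3.17 was reduced to -0.26. The largest shifts towards iNKT2 were at Thsd7b (-2.08), Fhit (-2.03), Spg20 (-1.85), Mcc (-1.81) and Kcnn2 (-1.76). These 10 genes had between 3 and 9 regions, and none belongs to a list above.

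The loci with the most iNKT1-high calls in Hivep3-/- mice were a large read-through model, Gm20388, which spans many other genes, and Coro2a, 2900026A02Rik, Cables1 and Pik3ap1. Coro2a, a coronin of the actin skeleton, had 20 of 34 regions called against 12 in C57BL/6 mice, and Pik3ap1, an adaptor for PI3 kinase, 13 of 21 against 11. The locus contrast of Pik3ap1 was 2.34 against 1.87, a called difference of 0.46 (limma adjusted p = 0.0511). At 2900026A02Rik, 15 of 24 against 7 were called, and 10 regions had a called difference towards iNKT1, with a locus contrast of 2.32 against 0.77 (difference 1.56, limma adjusted p = 0.00147). After Zbtb16, the loci with the most iNKT2-high calls were Gm20388 (21 of 355), Fgfr2 (20 of 100), Cacna1d (17 of 23) and Rora (16 of 41). Cacna1d, a calcium channel gene, had means of 1.44 and 1.37 in Hivep3-/- iNKT1 and 3.73 and 3.72 in Hivep3-/- iNKT2 libraries, a contrast of -2.32 against -1.61 (difference -0.71, adjusted p = 0.0216).

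The called regions were also described by position, level and state in iNKT17 cells. Promoters, within 1000 bp of a start site, made up 32.9% of the tested regions, 8.77% of the iNKT1-high and 7.96% of the iNKT2-high regions. Introns made up 36.2%, 49.2% and 51.5%, and intergenic regions 22.8%, 33.5% and 30.0%. The higher subset of called regions had a median linear density of 15.7 in iNKT1-high and 14.7 in iNKT2-high regions, and the lower subset 2.51 and 2.77. The calls rest on these same values, so the gap between the subsets is set by the rule. In Hivep3-/- iNKT17 cells, 40.0% of the iNKT1-high and 58.3% of the iNKT2-high regions were open, against 83.5% of all tested regions. At 228 iNKT1-high and 21 iNKT2-high regions, at least 1 Hivep3-/- library lay at its lowest value.

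Motif matches were counted in the 500 bases of each region, on both strands, with the letters given above and with TGANTCA for bZIP factors, TAGGTCA for ROR, AGATAA for zinc fingers of the GATA family, ACAGGAAGT for the ETS family, GCGTGGGNG for Egr, TTTTCCA for NFAT, GGANTTTCC for NF-κB and CAGCTG for an E-box. A match is a description of letters, not of binding. A T-box match was held by 8.63% of the Hivep3-/- iNKT1-high regions, 2.28% of the iNKT2-high regions and 2.93% of all tested regions. The C57BL/6 shares were 8.68% and 2.34%. A Runt match was held by 29.8% of iNKT1-high and 18.4% of iNKT2-high regions, against 17.1% of all, and an ETS match by 6.12% and 4.03%, against 4.04%. A TCF match was held by 8.10% of iNKT1-high and 14.5% of iNKT2-high regions, against 7.79% of all, and the iNKT2-high share was 17.3% in C57BL/6 mice. The stretches of Cd5, Inpp4a, Stim2, Rbm47 and Lhfpl3 printed above show such matches. The Gzmb stretch holds a TCF match too, although its region is iNKT1-high. The matches of GATA were at 24.3% and 27.6% against 20.1%, and those of NF-κB at 2.45% and 3.19% against 2.43%. Outside promoters, GATA stood at 24.8% of iNKT1-high and 28.6% of iNKT2-high regions against 24.1% of all tested, so the iNKT1-high share was near that of all. ETS stood there at 6.43% and 4.18% against 5.10%, and NF-κB at 2.47% and 3.19% against 2.58%.

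The regions whose contrast shifted with the genotype were read for the same letters. Of the 1234 regions shifted towards iNKT1 in Hivep3-/- mice, 16.8% held a TCF match, 29.3% a Runt match and 27.6% a bZIP match, against 7.79%, 17.1% and 15.5% of the regions tested in Hivep3-/- mice. The TCF share was near that of C57BL/6 iNKT2-high regions and the Runt share near that of iNKT1-high regions, both given above, and bZIP stood at 22.5% of Hivep3-/- iNKT1-high and 18.8% of iNKT2-high regions. Of the 602 regions shifted towards iNKT2, 9.97% held a ROR match, against 4.39%, while TCF, Runt and bZIP stood at 7.97%, 17.3% and 16.4%. Of the regions shifted towards iNKT2, 59.0% were open in Hivep3-/- iNKT17 cells, and of those shifted towards iNKT1 38.9%. Both lay below the 82.4% of all 59926 regions tested for the difference. They were near the 58.3% and 40.0% of the Hivep3-/- iNKT2-high and iNKT1-high regions. These shares describe regions that lie mostly outside promoters, where the shares of all tested regions were 3.52% for T-box, 21.3% for Runt, 9.52% for TCF, 18.7% for bZIP and 5.06% for ROR.

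**Figure D5:**
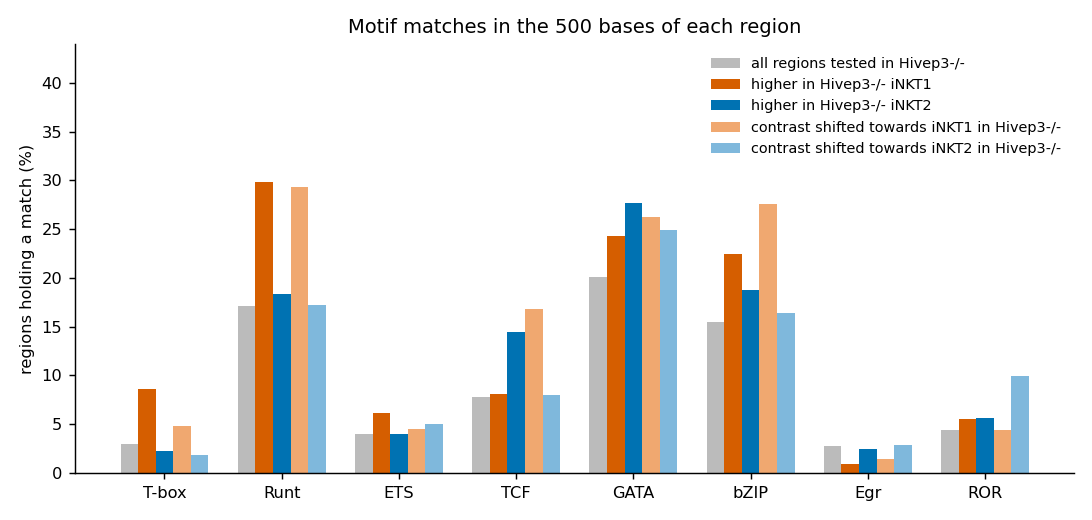
Bars give the share (%) of regions with at least 1 match of a motif, for all 58649 regions tested in Hivep3-/- mice, for regions higher in Hivep3-/- iNKT1 or iNKT2 cells and for regions whose contrast shifted between the genotypes. T-box stands out in the iNKT1-high bar (8.63%), TCF in the iNKT2-high bar and in that of the shift towards iNKT1 (16.8%), and ROR in that of the shift towards iNKT2 (9.97%).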

How the data were processed

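The study profiled thymic iNKT1, iNKT2 and iNKT17 cells of C57BL/6 and Hivep3-/- mice by Omni-ATAC, with 2 libraries in each of 6 groups. Reads were trimmed to 50 bp with Trimmomatic (0.39 in the submitters' processing notes) and mapped to mm10 with the ENCODE pipeline. Peaks of single libraries were merged into regions of 500 bp, without the Y chromosome and blacklisted parts, and insertions were counted. The deposited values are log2 insertions per kilobase that the authors normalized with voom, and all libraries share nearly the same quantiles. Raw counts were not used here, so no counting interval is given and depth enters only as described above.

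The log2 values were fitted with limma 3.58.1 (R 4.3.3), with 6 group means over 12 libraries and a variance trend. Contrasts were tested with Benjamini-Hochberg adjustment over the regions open in the groups compared, with a call at 3-fold or more and an adjusted p below 0.1. Loci were averaged over the tested regions of protein-coding genes (GENCODE vM21) with at least 3 regions, and called at an adjusted p under 0.1 with no fold minimum. Genes named beyond the lists were the 5 with the most calls, the 5 regions with the largest contrasts and the 5 with the largest differences in each class and direction. Listed genes without a value in the text entered the counts, and a region chosen by these rules is not reported here. The members and lists were chosen with earlier results of these data known. Two-sided exact permutation of 2 against 2 libraries cannot go below p = 0.333, so the model across all regions was used. Same-numbered libraries within a genotype deviated together (r = 0.216 in Hivep3-/- and 0.255 in C57BL/6 mice over 59926 regions), and so did those of different genotypes, which cannot share a mouse (r = 0.233 for iNKT1 and 0.188 for iNKT2). The sample titles give the number as that of a mouse. A fit with the number as a block is an alternative. Fits were tested on simulated data. Sequences were read from GRCm38.p6, and the other tools were Python 3.11.15, numpy 2.4.6, pandas 2.3.3, scipy 1.17.1 and matplotlib 3.10.9.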

Additional observations from a re-analysis of the deposited data

Results flagged for a closer look

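The subset contrast differed between Hivep3-/- and C57BL/6 mice, by the test of the difference itself in limma, at 1836 regions. By locus means, the contrast was shifted towards iNKT1 in Hivep3-/- mice at Tbx21 (1.03), Ifng (1.98), Nkg7 (1.01), Ccl5 (1.32), Slamf7 (0.76), Il5 (1.37), Pdcd1 (0.56) and Plac8 (1.45). It was shifted towards iNKT2 at Zbtb16 (-0.71), Il4 (-0.48), Rad50 (-0.67), Il17rb (-0.79), Il6ra (-0.64), Ccr4 (-0.46), Fasl (-0.55) and Il18rap (-0.83). Of the other loci named, the shift was towards iNKT1 at S1pr1 (0.55), Sdc1 (0.49), 2900026A02Rik (1.56), Megf11 (2.91), Htra3 (2.72), Nkd1 (2.54), Syt13 (2.42) and Antxr1 (2.38). Pik3ap1 (0.46), Blk (0.63), Pax5 (1.09) and Cd68 (0.25) had the same direction. The shift was towards iNKT2 at Icos (-0.82), Cd3d (-0.49), Cd3g (-0.31), Fyn (-0.51), Foxp3 (-0.56), Cacna1d (-0.71), Rora (-0.75), Serpinb1a (-0.94), Thsd7b (-2.08), Fhit (-2.03), Spg20 (-1.85), Mcc (-1.81) and Kcnn2 (-1.76).

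Single regions with such a difference towards iNKT1 were those near or in Fibcd1 (5.58), Dnaaf5 (5.48), Ypel2 (5.84), Rfx4 (5.75), Nfe2l3 (5.42) and Slain1 (5.37). Towards iNKT2, regions in Fhit had -5.92 and -4.91, and those labelled by St6galnac3 had -4.53, by Ccdc81 -4.51 and by Eef1akmt1 -4.49. Narrowed iNKT1-high regions had -3.43 and -3.11 in Thsd7b, -2.97 in Mthfs, -2.89 in Trib2 and -2.64 near Klf3. These regions were named for the size of their difference, so the sizes are descriptions. All values are on the log2 scale with 2 libraries in each group.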

How the results depend on the processing

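None of the 55 Hivep3-/- contrasts and 20 differences of single regions that were rerun changed direction. Of 116 loci rerun with the block, with 50 kb on either side and without 1 library, the 44 with a called difference kept its direction, and 30 of the others changed sign. List and motif shares were not rerun. A pseudocount of 5 on the linear scale gave 3196 calls between the Hivep3-/- subsets (1844 higher in iNKT1, 1352 in iNKT2), 1643 shared calls and 184 differences between the genotypes, and a 2-fold threshold gave 17313 (8501 and 8812), 11796 and 4001. A pseudocount of 1 gave 1214 differences. The share of differences towards iNKT1 was 67.2%, against 79.0% with a pseudocount of 1 and 92.9% with 5. Leaving out 1 library gave 1269 to 1942 differences and 10083 to 10353 calls in Hivep3-/- mice. Over the iNKT1-high regions of C57BL/6 mice the median Hivep3-/- contrast was 2.515 without a filter, 2.40 where the filter took the mean of the 12 libraries, 2.338 and 2.045 with pseudocounts of 1 and 5, 2.515 after renewed quantile normalization, 1.793 at 2-fold and 2.521 to 2.637 without 1 library. Over the iNKT2-high regions it was -1.797 and -1.615 with those pseudocounts, -1.605 at 2-fold and -2.085 to -1.956 without 1 library. Locus means gave 2693 differences with 50 kb on either side, 2432 with the replicate block and 607 to 1301 without 1 library, against 1434. The block changed no call among the single regions rerun. Among the 116 loci it added 12 calls, Ccr7, Ccr9, Il4ra and Il18r1 among them, and lost 0. Narrowed iNKT2-high regions outnumbered narrowed iNKT1-high ones under each alternative, by 45 against 0 at the least. With 50 kb on either side 8 of the 44 were lost, among them Ccl5, Slamf7, Rad50, Sdc1 and Cd3g, and other differences moved to 0.65 at Tbx21, 0.94 at Ifng, 0.61 at Plac8, 1.09 at Megf11 and 1.21 at Nkd1, and to -0.35 at Fasl, -0.51 at Il18rap, -0.50 at Icos, -0.23 at Cd3d and -0.86 at Mcc. The causes of these shifts were not tested. With 2 libraries a group, an uneven depth and no raw counts, differences at low regions are the least certain, and with a pseudocount of 5, 17 of the 20 differences and 16 of the 55 Hivep3-/- contrasts were no longer called.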
